A study of Homo sapiens with 16 samples.

Results

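TOP2B intervals of chromosomes 14 and 15 were taken from 4 lists of CUT&RUN peaks, with every interval of those chromosomes kept and placed by its midpoint in windows of 5 Mb on GRCh37. The lists held 2670 such intervals among 44922 on all chromosomes. The treated METTL7A knockout list had 499 of 7493 (6.66%), the treated wild-type list 233 of 9655 (2.41%), the untreated knockout list 1067 of 12493 (8.54%) and the untreated wild-type list 871 of 15281 (5.70%). All samples were PC9, a human lung adenocarcinoma line with an activating EGFR mutation, and the METTL7A knockout was made in that line. The labels do not say whether the knockout is a single clone. Treated cells received osimertinib, an EGFR inhibitor, for 6 to 8 weeks in doses rising from 100 nM, and each of the 4 conditions had 2 TOP2B libraries and 1 deposited list made from them. The other 8 samples of the series carried an antibody against histone H2A and were not analysed here.

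TOP2B is the beta isoform of DNA topoisomerase II. It relieves twisting and tangling of DNA by passing 1 double helix through a transient break in another, and it is known at active promoters and at the anchors of chromatin loops. Chromosomes 14 and 15 are acrocentric: their short arms carry ribosomal gene arrays and are largely absent from the assembly, so mapped intervals come from the long arms. Chromosome 14 also carries NKX2-1, the lineage transcription factor of lung and thyroid, whose locus is amplified in some lung adenocarcinomas.

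With 1 list per condition, no test could set conditions against the spread of replicates. Shares and ratios carry exact 95% intervals that cover counting error only, and neighbouring intervals are not independent. A ratio of shares is the percentage of 1 list divided by the percentage of another. Library depth is unknown, and the lists may differ in the signal a peak needed to enter them. An empty window therefore says only that no listed peak lay there, not that signal was absent.

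Chromosome 14 held most of the intervals, and nearly all of those lay in a pair of blocks on the distal part of its long arm. Runs of 1 Mb windows with at least 20 intervals over the 4 lists marked a proximal block from 74 to 80 Mb and a distal block from 101 to 106 Mb. The blocks were drawn from these counts, so their density is a description. DNA copy number was not examined and the H2A samples were not set against the lists. Whether the density reflects TOP2B binding was therefore not tested. They held 411 of 426 chromosome 14 intervals in the treated knockout (96.5%, 94.3 to 98.0) and 123 of 173 in treated wild type (71.1%, 63.7 to 77.7). Without drug they held 842 of 867 in the knockout (97.1%, 95.8 to 98.1) and 683 of 716 in wild type (95.4%, 93.6 to 96.8). Treated wild type was thus the list with the most chromosome 14 intervals elsewhere. It gave 100 of the 1313 proximal and 23 of the 746 distal intervals from which the blocks were drawn. The blocks therefore follow the other lists, so low treated wild-type counts inside them are partly built in.

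The proximal block was the denser of the pair in every list. It held 245 intervals in the treated knockout, 100 in treated wild type, 536 in the untreated knockout and 432 in untreated wild type, or 40.8, 16.7, 89.3 and 72.0 per Mb. The 5 Mb window from 75 to 80 Mb ranked 10th, 36th, 3rd and 3rd in those lists by number of intervals, among 419 windows of the genome with an interval in any list. The distal block held 166, 23, 306 and 251 intervals in the same order. The ratio of proximal to distal intervals was 1.48 in the treated knockout (1.21 to 1.81), 4.35 in treated wild type (2.74 to 7.17), 1.75 in the untreated knockout (1.52 to 2.02) and 1.72 in untreated wild type (1.47 to 2.02). The interval of treated wild type did not overlap those of the other lists.

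Within each block the same 1 Mb window was the densest in every list. In the proximal block it was 77 to 78 Mb, with 88 intervals in the treated knockout, 38 in treated wild type, 137 in the untreated knockout and 113 in untreated wild type. In the distal block it was 103 to 104 Mb, with 62, 10, 118 and 98 intervals in the same order. At 76 to 77 Mb the treated knockout had 38 intervals and the untreated knockout 109, against 62 and 111 in the window before. The treated knockout profile thus dipped there and the untreated knockout one was nearly level. Wild type had 13 treated and 85 untreated intervals there, against 25 and 98 in the window before, so both of its lists dipped.

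**Figure D1:**
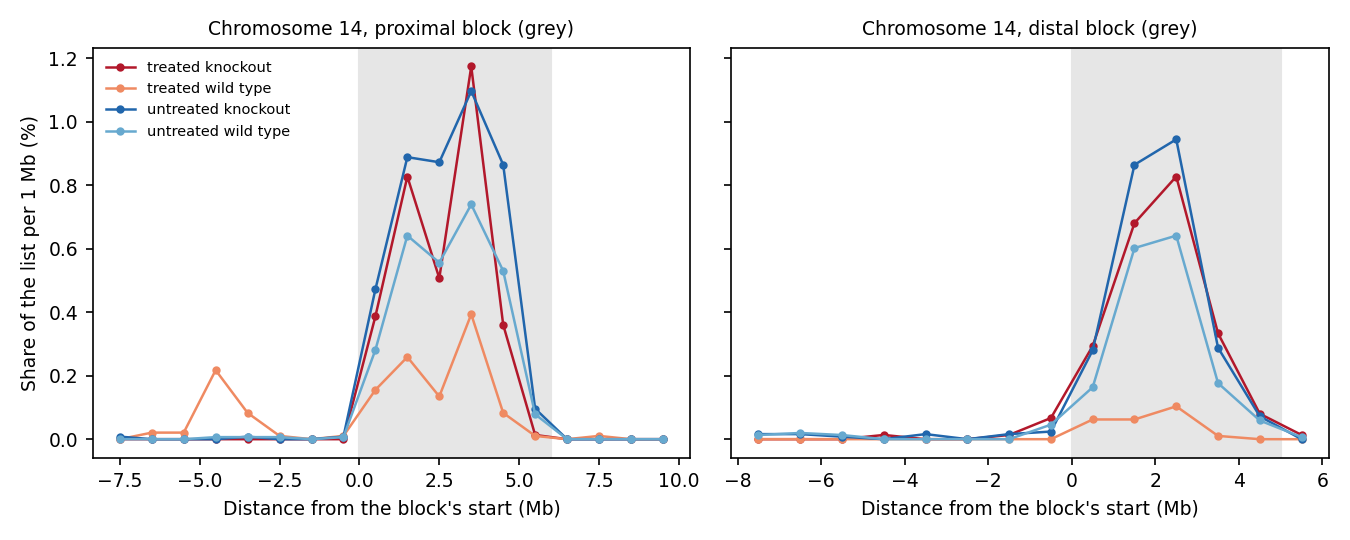
Share of each list per 1 Mb window (%) against the distance from the start of the block (Mb), for the proximal and distal blocks of chromosome 14, shaded grey. Lines are the 4 lists. All 4 rise inside the blocks and are near 0 outside, except treated wild type, which has a further rise 4 to 5 Mb before the proximal block.

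The far edge of the proximal block lay close together among the lists, and the near edge less so. Its last interval ended at 79410550 in the treated knockout, at 79411300 in treated wild type, at 79488500 in the untreated knockout and at 79491350 in untreated wild type. The next interval of the same list followed after 11.48, 2.01, 9.12 and 10.6 Mb in that order. At the near edge the first interval started at 74680351 in the treated knockout, 74226751 in treated wild type, 74507601 in the untreated knockout and 74192651 in untreated wild type. The distal block began at 101819401 in the treated knockout and at 101827801 in treated wild type, 1.03 and 20.4 Mb after the previous interval. In the untreated lists its near edge is the limit drawn at 101 Mb, since intervals lay 0.431 Mb before the first of the block in the knockout and 0.0433 Mb before it in wild type. Its last treated wild-type interval ended at 104093550 and was the last of the chromosome, whereas the other lists had intervals up to 106 Mb.

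Intervals of the untreated lists were wider and higher in the blocks than on the other chromosomes of the same list. Height is given as the maximum of the called peak divided by the median over all intervals of its list. In untreated wild type the median width was 3150 bp in the proximal block and 3100 bp in the distal block, against 2600 bp on the other chromosomes, and the median relative maximum was 1.25 in both blocks against 1.00. In the untreated knockout the widths were 1875 and 1800 bp against 1650 bp, and the relative maximum was 1.2 in both against 1.00. The treated lists had no higher relative maximum in the blocks than on the other chromosomes, and their widths differed little except in the distal block of treated wild type. The treated knockout had 1150 and 1200 bp against 1150 bp and a relative maximum of 1.00 in both blocks. Treated wild type had 1150 and 1350 bp against 1200 bp, with relative maxima of 1.00 and 0.909 against 1.00.

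**Figure D2:**
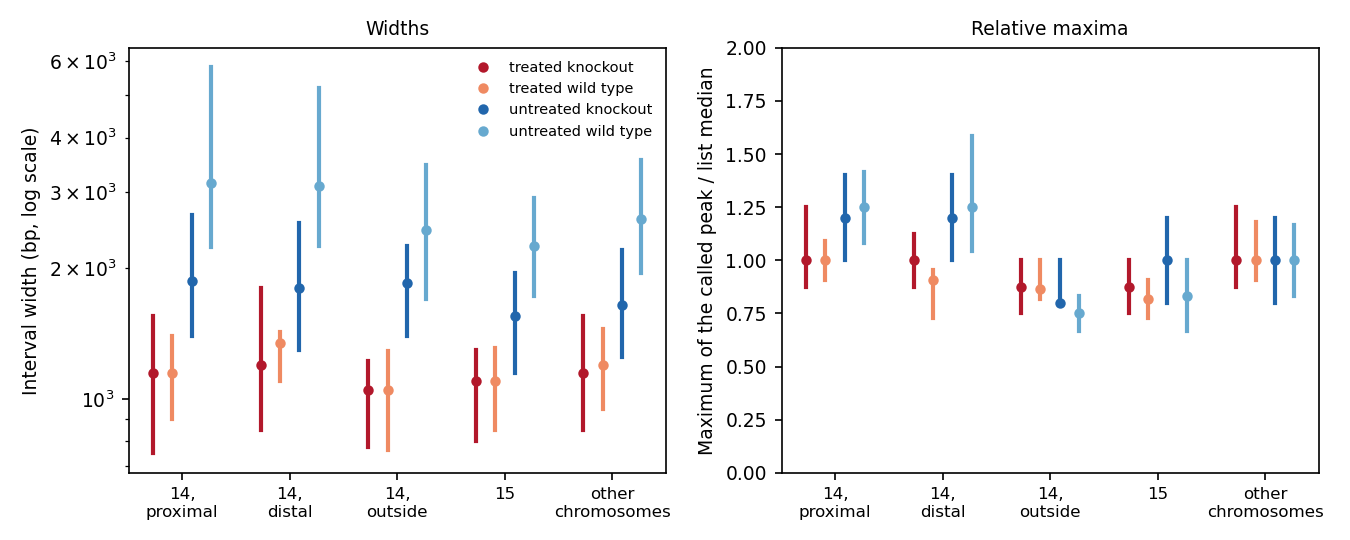
Interval width (bp, log axis) and relative maximum of the called peak, as medians (points) and quartiles (bars), for the parts of chromosomes 14 and 15 and for all other chromosomes in the 4 lists. Among the parts plotted, the untreated lists have their highest medians of relative maximum in the blocks, at 1.2 and 1.25.

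Broad enrichment in the blocks was cut into pieces most often in untreated wild type. In that list, 79.9% of the proximal and 72.1% of the distal intervals belonged to a called peak that gave more than 1 interval, against 49.1% on the other chromosomes. The shares were 44.1 and 41.0% in the treated knockout against 33.4% on its other chromosomes. In treated wild type they were 51.0 and 26.1% against 50.2%, and in the untreated knockout 5.97 and 3.27% against 3.23%. The most divided called peak of untreated wild type gave 11 intervals over 91.7 kb, from 103360951 to 103452650 of chromosome 14, with a relative maximum of 1.42. The widest interval of that whole list lay in the same block, at 103974301 to 104021900, and measured 47600 bp. In the untreated knockout the widest interval of these chromosomes was 10200 bp, at 75413101 to 75423300 of chromosome 14.

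The knockout and wild-type lists made without drug compare the genotypes of METTL7A, a methyltransferase-like protein, in cells that never met osimertinib. With 1 list of each, whether a difference comes from the loss of METTL7A was not tested. Chromosome 14 held 867 intervals in the untreated knockout (6.94%) and 716 in untreated wild type (4.69%), a ratio of shares of 1.48 (1.34 to 1.64). The blocks differed alike, by 1.52 (1.33 to 1.73) for the proximal and 1.49 (1.26 to 1.77) for the distal one. Chromosome 15 held 200 intervals (1.60%) and 155 (1.01%), a ratio of 1.58 (1.27 to 1.96). Among 22 chromosomes with enough intervals, 15 had the 3rd and 14 the 4th highest ratio. These values depended on how peaks were counted. By called peaks the ratio was 2.06 (1.81 to 2.34) for chromosome 14 and 1.24 (0.989 to 1.55) for chromosome 15, and by summed length 1.21 and 1.85. Among intervals at or above the median maximum of their list, the log2 ratio for chromosome 14 was 0.078.

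By 5 Mb windows, no member window differed by 2-fold on chromosome 14 in that comparison. Windows with at least 20 intervals over the 4 lists were examined, 14 on the 2 chromosomes (5 and 9) and 233 in the genome, with 0.5 added to each count. Of the 14, 3 had an at least 2-fold higher share in the untreated knockout, where 6.87% of all windows did, and 0 an at least 2-fold lower share, where 18% of all windows did. All 3 lay on chromosome 15. The clearest was 95 to 100 Mb with 22 and 6 intervals (ratio 4.48, 1.76 to 13.5), and the other two, the windows starting at 65 Mb (5 and 2) and at 70 Mb (9 and 4), had intervals that included 1. The median log2 ratio over the 14 windows was 0.64, against -0.25 over all 233.

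**Figure D3:**
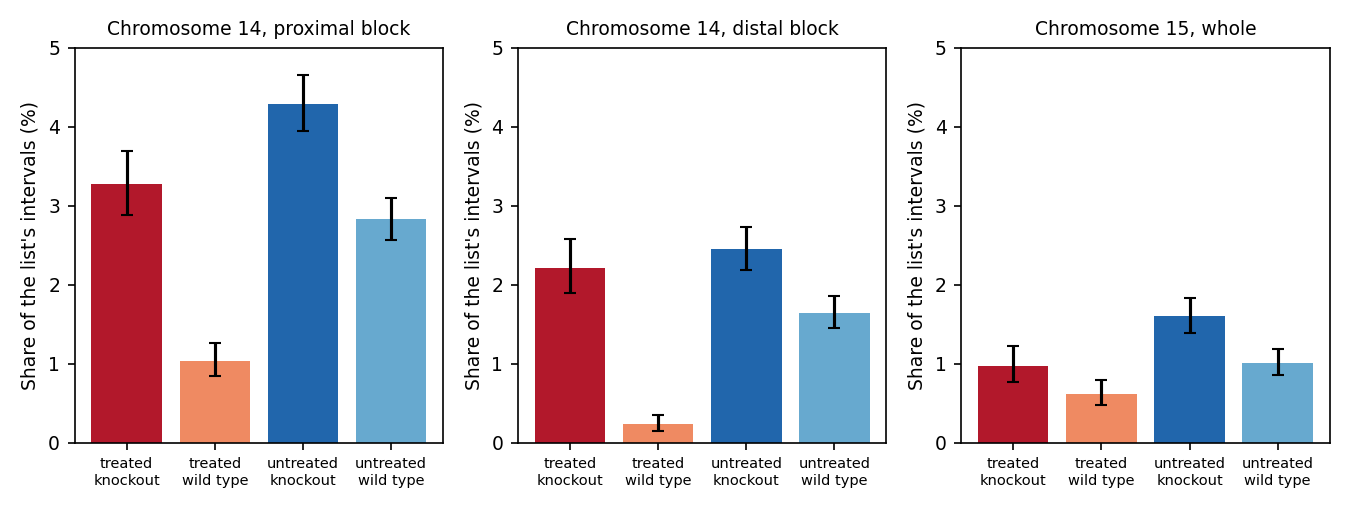
Share of each list (%) in the proximal and distal blocks of chromosome 14 and on chromosome 15, with exact 95% intervals for counting error. Treated wild type has the lowest share in all 3 panels, 1.04%, 0.238% and 0.621%.

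Under osimertinib the knockout and wild-type lists had a ratio further from 1 on chromosome 14. Its share was 5.69% in the treated knockout (426 intervals) and 1.79% in treated wild type (173), a ratio of 3.17 (2.65 to 3.81). The distal block differed most, with 166 and 23 intervals (9.30, 5.99 to 15.1), and the proximal block less, with 245 and 100 (3.16, 2.49 to 4.02). By called peaks these ratios were 6.92 (4.30 to 11.7) and 2.95 (2.23 to 3.94). As the blocks were drawn mainly from lists other than treated wild type, these ratios are a description. In the opposite direction, the stretch from 60 to 74 Mb, just before the proximal block and chosen after its counts were seen, held 1 interval in the treated knockout and 48 in treated wild type.

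In all, chromosome 15 held 73 intervals in the treated knockout and 60 in treated wild type (1.57, 1.10 to 2.24), and by called peaks the ratio was 1.38, with an interval that included 1 (0.953 to 2.001). A division at 75 Mb, drawn after the counts were seen and so a description, gave 67 and 20 intervals from there to the end and 5 and 34 from 40 to 75 Mb. Of the 14 windows, 8 had an at least 2-fold higher share in the treated knockout (30.5% of all windows) and 4 an at least 2-fold lower share (39.5% of all windows). The 4 lay at 65 to 70 Mb of chromosome 14 and at 20 to 25, 65 to 70 and 70 to 75 Mb of chromosome 15. None reached the minimum of 20 intervals without treated wild type. At 80 to 85 Mb of chromosome 15 there were 10 intervals in the treated knockout and 0 in treated wild type, and at 95 to 100 Mb 7 and 0. The median log2 ratio over the 14 windows was 1.69, against -0.48 over all 233.

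Wild-type cells after weeks of osimertinib were next set against untreated ones. The share of chromosome 14 was 1.79% in treated wild type (173 intervals) and 4.69% in untreated wild type (716), a ratio of 0.382 (0.322 to 0.452). The distal block had 23 and 251 intervals (0.145, 0.0903 to 0.223) and the proximal block 100 and 432 (0.366, 0.292 to 0.456). By called peaks the ratios were 0.258 (0.152 to 0.416) and 0.560 (0.420 to 0.740), both still below 1. They too are a description, since the blocks were drawn mainly from lists other than treated wild type. Outside the blocks treated wild type had 50 intervals and untreated wild type 33. Of these, 48 and 5 lay at 60 to 74 Mb, and the rest of the chromosome went the other way, with 2 and 28. Of the 48, 21 lay at 69 to 70 Mb, where untreated wild type had 1.

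The same division of chromosome 15 gave 20 intervals in treated wild type and 130 in untreated wild type from 75 Mb to the end. From 40 to 75 Mb it gave 34 and 13. Within that stretch the 5 Mb windows from 65 and from 70 Mb had 11 and 13 treated intervals against 2 and 4 untreated ones, with ratios of 8.70 (1.90 to 80.8) and 5.14 (1.59 to 21.7). Of the 14 windows, 3 had an at least 2-fold higher share in treated wild type (28.3% of all windows) and 8 an at least 2-fold lower share (35.6% of all windows). The 3 were those windows and 65 to 70 Mb of chromosome 14. Each reached the minimum of 20 intervals only with treated wild type. The median log2 ratio was -1.34 over the 14 windows and -0.29 over all 233.

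In the knockout the same comparison gave a ratio nearer to 1 for chromosome 14 and its blocks, but not for chromosome 15. Chromosome 14 held 426 intervals in the treated knockout (5.69%) and 867 in the untreated knockout (6.94%), a ratio of 0.819 (0.728 to 0.921). The proximal block had 245 and 536 (0.762, 0.653 to 0.888) and the distal block 166 and 306 (0.904, 0.744 to 1.10). Chromosome 15 had 73 and 200 (0.609, 0.459 to 0.799), the 2nd lowest ratio of 22 chromosomes, where the wild-type ratio was 0.613 (0.447 to 0.830). Of the 14 windows, 0 had an at least 2-fold higher share in the treated knockout (6.44% of all windows) and 3 an at least 2-fold lower share (23.2% of all windows). Among the 3, the chromosome 15 window starting at 75 Mb had 5 and 28 intervals (0.298, 0.0898 to 0.781), while the other two, 20 to 25 Mb of chromosome 15 (1 and 6) and 65 to 70 Mb of chromosome 14 (0 and 2), rested on few intervals. The median log2 ratio was -0.43 over the 14 windows and -0.36 over all 233. The 4 comparisons share lists, and no test of a genotype by treatment difference was possible.

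**Figure D4:**
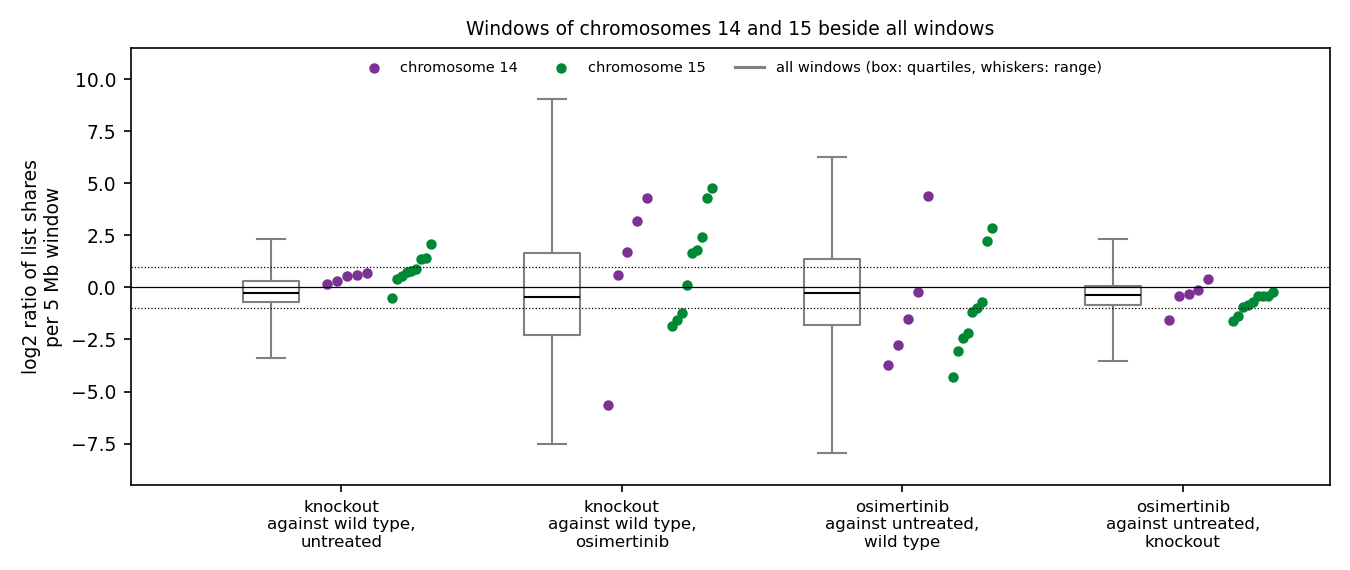
log2 ratio of list shares per 5 Mb window, with 0.5 added to each count, in the 4 comparisons. Points are the 5 windows of chromosome 14 and the 9 of chromosome 15, boxes give the quartiles and whiskers the range of all 233 windows, and dotted lines mark 2-fold. The points spread over several log2 units in the 2 comparisons with treated wild type and lie nearer to 0 in the others.

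Intervals of the blocks often had a counterpart, meaning an interval of the other list that overlapped by at least 1 bp. Without drug, 65.6% of the knockout intervals of both chromosomes had a wild-type counterpart (62.7 to 68.5), against 53.7% over the whole knockout list. The share was 81.3% in the proximal block (77.8 to 84.6), 75.8% in the distal block (70.6 to 80.5) and 16% on chromosome 15 (11.2 to 21.8). Of the treated knockout intervals, 60.1% (55.7 to 64.4) had an untreated knockout counterpart, against 43.7% over the whole list. Counterparts are found more easily where intervals are dense or wide, as in the blocks.

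Most treated wild-type intervals inside the blocks touched an untreated wild-type interval. Of its intervals on both chromosomes, 48.5% (41.9 to 55.1) overlapped an untreated wild-type interval, against 28.7% over the whole list. In the blocks the shares were 85 of 100 proximal and 22 of 23 distal intervals, whereas on chromosome 15 it was 5 of 60. Untreated wild-type intervals covered 33.6% of the proximal and 23.0% of the distal block. When the overlap had to span 50% of both intervals, 5 of the 100 proximal, 2 of the 23 distal and 2 of the 60 chromosome 15 intervals had a counterpart, against 4.63% of the whole list. An interval less than 50% as wide as another cannot meet this rule even when it lies inside it. Median proximal widths were 1150 bp in treated and 3150 bp in untreated wild type, so the rule cannot show whether positions differ. Between the treated lists, 10.6% (8.06 to 13.7) of the knockout intervals had a wild-type counterpart, against 13.4% over the whole list. Read from the other side, 34 of the 100 proximal and 15 of the 23 distal treated wild-type intervals had a treated knockout counterpart, and 3 of the 60 on chromosome 15, against 10.5% of the whole treated wild-type list.

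Merging overlapping intervals of the 4 lists gave 961 positions on chromosome 14 and 426 on chromosome 15. In the proximal block 45 of 522 positions were held in all 4 lists, in the distal block 13 of 318, on chromosome 14 outside the blocks 0 of 121, and on chromosome 15 1 of 426. Positions held in a single list made up 43.7% in the proximal block, 51.6% in the distal block, 98.3% outside the blocks and 88.7% on chromosome 15. Over all chromosomes, 72.9% of 29197 positions were held in a single list and 2.29% in all 4. Treated wild type occupied 18 distal positions, and each of them was also held in another list. A further 75 proximal (14.37%) and 54 distal positions (16.98%) were held in the 3 other lists but not in treated wild type. That pattern was not counted over all chromosomes, where 7.61% of positions were held in any 3 lists. Positions missing only the treated knockout numbered 21 proximal and 3 distal, and those missing only the untreated knockout 1 and 1. Block positions missing from a single list were thus most often missing from treated wild type. That list also had the fewest intervals in the blocks, and positions held in all 4 lists were more frequent there too. Whether positions were lost in treated wild type was not tested.

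**Figure D5:**
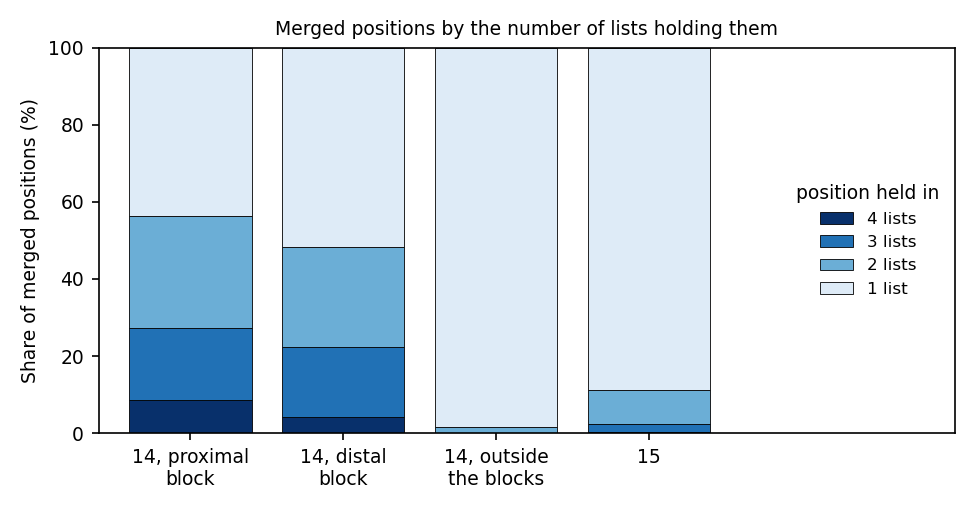
Share of merged positions (%) held in 4, 3, 2 or 1 of the lists, for the blocks of chromosome 14, the rest of that chromosome and chromosome 15. Shared positions lie mainly in the blocks, where 43.7% and 51.6% of positions are held in a single list, against 98.3% outside and 88.7% on chromosome 15.

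The 58 shared positions of chromosome 14 ran from 74693351 to 104021900 and had a median merged width of 12075 bp. By mean relative maximum the first of them was 75914801 to 75932800, with 1.5 in the treated knockout, 1.36 in treated wild type, 2 in the untreated knockout and 1.58 in untreated wild type. In the distal block it was 101991101 to 102027150, with 1.75, 1.09, 2 and 1.58 in the same order. The following ones were 76548001 to 76563750 (1.5, 1.09, 2.2 and 1.42) and 101822501 to 101842150 (1.38, 0.909, 2.2 and 1.58). Treated wild type had the lowest relative maximum, or shared it, at 45 of the 58. The same count was not made over all chromosomes, so it is not shown to be particular to chromosome 14. The lists also differed in how many intervals they had at a position, for example 7, 1, 8 and 2 at 101991101 in the order above. That was not corrected for. Wide intervals overlap others more easily, so the choice of shared positions favours width. Median widths at shared positions and among the other members were 1350 and 1100 bp in the treated knockout, 1250 and 1050 bp in treated wild type, 2550 and 1750 bp in the untreated knockout and 8100 and 2800 bp in untreated wild type.

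The position of chromosome 15 that all lists held was also the highest of either chromosome in each of them. It lay at 21315151 to 21316350, near the start of the mapped long arm. Its relative maximum was 2.12 in the treated knockout, 3.36 in treated wild type, 4.6 in the untreated knockout and 7.67 in untreated wild type, which placed it 37th of 6023, 19th of 6616, 18th of 12284 and 11th of 10488 called peaks. The region of the maximum began at 21315751, 21315701, 21315801 and 21315751 in that order, within 100 bp in all lists. The interval was narrow, from 750 bp in the treated knockout to 1050 bp in both untreated lists.

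The next highest called peaks of chromosome 14 differed between lists, though some of those named were tied with others. In the treated knockout they were at 77710751 to 77711200 (1.88) and 74934351 to 74936100 (1.75), and in the untreated knockout at 75696301 to 75697600 (2.4) and 101826751 to 101830400 (2.2). In untreated wild type both lay in the distal block, at 102085451 to 102103850 and 102605701 to 102621500 (2.08 each). Treated wild type had its next highest peak on chromosome 15, at 20545101 to 20546950 (1.55). Then came 74966801 to 74991700 of chromosome 14 (1.36), 1 called peak that gave 6 intervals. The maxima of both lay outside their intervals, as did that of 77710751 to 77711200 in the treated knockout. On these chromosomes 2 called peaks shared the 1.75 of the treated knockout, 3 the 2.2 of the untreated knockout and 4 the 1.36 of treated wild type. Only 1 of each is named.

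Chromosome 15 was occupied sparsely, mostly from 65 Mb to its end. Its densest windows were 85 to 90 Mb and 90 to 95 Mb in 3 lists, with 18 and 18 intervals in the treated knockout, 41 and 36 in the untreated knockout, and 38 and 26 in untreated wild type. In treated wild type they were 70 to 75 Mb and 65 to 70 Mb, with 13 and 11. The median relative maximum on chromosome 15 was 0.875 in the treated knockout, 0.818 in treated wild type, 1.00 in the untreated knockout and 0.833 in untreated wild type. The longest stretch without an interval ran from 21316151 to 67471150 in the treated knockout (46.2 Mb) and from 22434401 to 66938450 in the untreated knockout (44.5 Mb). The wild-type lists broke that stretch at 40 to 45 Mb, with 9 treated and 7 untreated intervals where the knockout lists had 0.

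The NKX2-1 region, 36 to 38 Mb of chromosome 14, held no interval in any of the 4 lists. NKX2-1 lies there between MBIP and NKX2-8 in the gene order of RefSeq for GRCh38, with PAX9, another developmental transcription factor, next after NKX2-8. A count of 0 allows a share of up to about 0.0400% of the treated knockout list, 0.0311% of treated wild type, 0.0240% of the untreated knockout and 0.0196% of untreated wild type. These limits take 3 intervals as an approximate upper bound for counting error only, and are not the exact intervals used elsewhere. The nearest interval was at 35852701 to 35855600 in untreated wild type, 0.144 Mb before the region, with a relative maximum of 0.667, and none of the other lists had it. In the treated knockout the nearest was at 39909801 to 39911400 (0.875). From 25 to 60 Mb the lists held 3 intervals in the treated knockout, 1 in treated wild type, 0 in the untreated knockout and 1 in untreated wild type, so the region lay in a stretch with few intervals in any list.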

How the data were processed

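TOP2B CUT&RUN peaks of PC9 cells were analysed from 4 deposited lists, 1 per condition, which the authors' naming describes as intersected peaks. The submitters' processing notes name SEACR, a caller of CUT&RUN peaks, with bedtools 2.30, Bowtie2 2.4.2, deepTools 3.5.1, SAMtools 1.16, FastQC and Trimmomatic, and the GRCh37 build. SEACR settings and duplicate handling are not stated there. The area of a called peak is a deposited score and its maximum a deposited signal, identified from the values in lists with no header; their scaling is unknown. Both belong to the called peak, which can give several intervals.

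Intervals were counted with pandas 2.3.3 and numpy 2.4.6, exact intervals came from scipy 1.17.1, and counting was tested on simulated data. Positions count from 1. Named positions were every interval at 36 to 38 Mb of chromosome 14, the extreme and densest 5 Mb windows, the 3 highest called peaks per list and up to 10 positions held in all lists, of which the first few are given. Members, lists and tests were chosen with earlier results of these data known, and the blocks after their counts were seen. No GRCh37 genome or annotation was used here, so no sequence is printed and genes other than the NKX2-1 neighbourhood are not placed; RefSeq of GRCh38 gave gene order only. Genotype labels were not checked. Alternatives were called peaks counted once, a stricter maximum, leaving out chromosomes 5, 7, 17 and 20, shifted windows, a higher window minimum and other overlap rules.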

Additional observations from a re-analysis of the deposited data

Results flagged for a closer look

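In 4 of the 14 windows the treatment ratio had opposite signs in the genotypes. Each value came from 1 list per condition, so the difference was not tested. How many of all 233 windows did so was not counted, so the 4 are not shown to be particular to these chromosomes. All values are log2 ratios of shares, osimertinib against untreated, with 0.5 added to each count. At 65 to 70 Mb of chromosome 14 the value was -1.58 in the knockout (0 and 2 intervals) and 4.36 in wild type (32 and 2). At 105 to 110 Mb of chromosome 14 it was 0.40 in the knockout (7 and 9) and -3.73 in wild type (0 and 10). At 65 to 70 Mb of chromosome 15 it was -0.40 in the knockout (2 and 5) and 2.86 in wild type (11 and 2), and at 70 to 75 Mb -0.70 (3 and 9) and 2.25 (13 and 4). The knockout values rest on at most 9 intervals in a list. Without the 0.5, all 4 knockout ratios had intervals that included 1. These were 0 to 8.88, 0.410 to 3.91, 0.0635 to 4.07 and 0.0968 to 2.23 in that order. No direction is therefore shown in the knockout. Treated wild type gave 32 of the 36 intervals at 65 to 70 Mb of chromosome 14. On chromosome 15 it gave 11 of 20 at 65 to 70 Mb and 13 of 29 at 70 to 75 Mb. Those windows reached the minimum of 20 only with that list.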

How the results depend on the processing

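None of the 48 log2 ratios recomputed under an alternative changed direction, and 19 moved beyond the counting interval. The interval came to include 0 for untreated knockout against wild type with maxima at or above the list median (chromosome 14 -0.081 to 0.239, proximal -0.093 to 0.312, distal -0.247 to 0.294). By called peaks it did so for chromosome 15 without drug (-0.016 to 0.633) and under osimertinib (0.46, -0.070 to 1.00). Leaving out chromosomes 5, 7, 17 and 20 moved none of them. By called peaks, knockout against wild type without drug was 1.04 for chromosome 14, 0.31 for chromosome 15, 1.165 for the proximal and 1.06 for the distal block; osimertinib in wild type was -0.76 for chromosome 14, -0.84 for the proximal and -1.96 for the distal block. With maxima at or above the list median, knockout against wild type was 0.078, 1.35, 0.11 and 0.023 without drug in the same order. Under osimertinib it was 1.97 for chromosome 14, 1.31 for chromosome 15 and 4.52 for the distal block. Osimertinib in wild type was then -2.27, -1.55, -2.02 and -4.65 for chromosome 14, chromosome 15 and the proximal and distal blocks, and in the knockout -1.59 for chromosome 15. Ties at the median kept 74.2% of the untreated knockout but 51.9% of the untreated wild-type intervals.

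Windows past 2-fold numbered 3, 12, 11 and 3 in the 4 comparisons, in the order of the report. With at least 40 intervals they were 0, 6, 6 and 1 of 8 windows; with maxima at or above the median 4, 6, 7 and 3 of 7; and with shifted windows 1 of 12 for the knockout. Requiring 50% overlap of both intervals gave counterparts for 15.7, 5.01, 4.29 and 14.8% of the intervals, and allowing 1 kb gave 73.7, 17.4, 55.4 and 71.5%. The 50% rule also fails where 1 interval is much wider than the other, as between the wild-type lists. The blocks' alternatives were added after the data had been examined. No paired analysis was possible because each condition has 1 list made from its 2 libraries, and for the same reason no replicate could be left out. Depth limits what a missing interval shows.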
